A study of Rattus norvegicus with 6 samples.

Results

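Cell adhesion receptors of rat aortic vascular smooth muscle cells (RASMCs) were examined in the bulk RNA-seq counts: the integrin alpha and beta subunits, the numbered cadherins, and Icam1 and Vcam1. Members were taken by gene symbol, in a choice of families made with earlier results of these data known, and 51 of the 22574 symbols in the count table qualified. These were 18 integrin alpha genes, 8 integrin beta genes, 23 cadherins and the Icam1-Vcam1 pair. The RASMCs were primary cells from the aortas of male Sprague-Dawley rats, from which adventitia and endothelium had been removed. In 3 libraries the cells had received H3CIT, the citrullinated form of histone H3, at 0.03 μM and double-stranded DNA (dsDNA) at 300 ng/ml (labelled CitH3+dsDNA by the submitters), which are parts of extracellular traps, while 3 libraries came from control cells given bovine serum albumin. The time of exposure was not given in the sources used here, and neither group carried a genetic change. Wells plated from one rat served as replicates in vitro, so p-values measure the spread between wells and library preparations, not between animals.

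Integrins are heterodimers of an alpha and a beta subunit that bind matrix proteins or receptors on other cells and couple them to the actin cytoskeleton. The alpha subunit largely sets the ligand, and the beta subunit carries the tail to which talin and kindlins bind. Cadherins bind their own kind on a neighbouring cell through calcium-dependent contacts and hold beta-catenin and alpha-catenin at the membrane. ICAM1 and VCAM1 are the counter-receptors of leukocyte integrins, ICAM1 for those with the Itgb2 product and VCAM1 for those with the Itga4 product. Both genes are textbook targets of NF-kB, and Icam1 also carries an interferon-activated (GAS) element to which STAT factors bind. In atherosclerosis smooth muscle cells are known to display both proteins.

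The DNA just upstream of Icam1 and Vcam1 is shown because it holds the elements for which these genes are known. The sequences are the 250 bases before the transcript start in RefSeq, genome build GRCr8, Icam1 on the plus strand at chr8:27829595-27829844 and Vcam1 on the minus strand at chr2:206742784-206743033, both 5′ to 3′. Capitals mark matches to GGAAATTCC, GGGNNTNCC or TTCCNGGAA, searched on both strands. The first is the Icam1 form of the kB site, the second its general form and the third the GAS element, and no match overlaps another.
Icam1: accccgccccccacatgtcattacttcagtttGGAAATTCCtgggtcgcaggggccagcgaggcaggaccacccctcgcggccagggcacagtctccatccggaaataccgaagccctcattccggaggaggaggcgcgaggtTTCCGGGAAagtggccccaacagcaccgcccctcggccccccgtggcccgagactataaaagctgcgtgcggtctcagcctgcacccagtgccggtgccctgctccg
Vcam1: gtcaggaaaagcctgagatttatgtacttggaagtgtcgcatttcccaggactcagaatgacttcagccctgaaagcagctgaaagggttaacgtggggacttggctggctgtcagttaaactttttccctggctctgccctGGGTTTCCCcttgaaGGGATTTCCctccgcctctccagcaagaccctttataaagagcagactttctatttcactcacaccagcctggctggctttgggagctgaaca

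In Icam1 the GGAAATTCC match begins 218 bases before the start and the TTCCNGGAA match 107 bases before it. Vcam1 has 2 neighbouring GGGNNTNCC matches, beginning 108 and 93 bases before the start. Of 27457 rat promoters of this length, 0.288% held GGAAATTCC, 13.2% held GGGNNTNCC and 1.04% held TTCCNGGAA. A promoter was given for 34 of the 51 members; among these only Icam1 held the first and the third, and 4 held GGGNNTNCC (Cdh20, Itga5, Itgb5 and Vcam1). The patterns were picked for what is known of Icam1 and Vcam1, so that these genes hold them is no finding. These are matches of letters and not measured binding.

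Of the adhesion receptor transcripts, 1 rose and none was called lower after H3CIT+dsDNA. Itgb2, which encodes the beta subunit shared by the leukocyte integrins, rose 1.88-fold from a low level. This call depended on the processing. It was made in 9 of 15 alternative analyses, and in 1 of the 6 among them that left out a library. Icam1 and Vcam1 did not pass the test, nor did the subunits with the most reads in these cells (Itgb1, Itgb5, Itga7, Itgav and Itga11) or any cadherin. In all, 34 of the 51 members had enough reads for testing, and the single call compares with 1.94% of all 12591 genes tested that were called higher and 0.262% called lower. A gene is called where edgeR's quasi-likelihood test gave a Benjamini-Hochberg p, adjusted over all 12591 genes, under 0.05. No member was called lower by DESeq2 or limma-voom either. At an unadjusted p under 0.05 in edgeR, 6 of the 34 were higher and 2 lower. Over all 12591 genes tested, 1088 were higher and 667 lower at this level. The median log2 fold change of the 34 was 0.0013, against -0.0013 over all genes tested, and the median size regardless of sign was 0.086 against 0.076. The summed reads of all 51 members made up 0.601% to 0.622% of each H3CIT+dsDNA library and 0.599% to 0.611% of each control library.

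Library totals lay between 17573905 and 18742395 counts, and CPM, the count over the library total scaled by TMM (a correction for composition), is used for levels. Replicates differed by more than counting noise in each pair, with a chi-square per gene of 3.31 or more. The smooth muscle markers Myh11, Des and Lmod1 did not pass the test, while Acta2, Tagln, Cnn1 and Smtn fell and Myocd rose. Their summed level was 5746 to 6303 CPM after H3CIT+dsDNA and 8484 to 9225 CPM in controls. The 10 endothelial markers summed to 108 to 116 CPM and 114 to 119 CPM. Nearly all of it came from Nos3 (908 to 1033 counts) and Egfl7 (973 to 1102 counts), while Kdr, Emcn and Cldn5 were at 0 or 1 count in any library. The 10 leukocyte and macrophage markers summed to 123 to 129 CPM and 125 to 131 CPM. Nearly all of it came from Cd14 (921 to 994 counts), Coro1a (882 to 985) and Csf1r (296 to 374), while Ptprc, the pan-leukocyte marker, was at 0 or 1 count and Cd68 at 10 to 19. None of the endothelial or leukocyte markers passed the test. The part of other cells in the results below was not tested. In bulk RNA a change in the number of expressing cells and a change in RNA per cell cannot be told apart.

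Icam1 gave 5950, 5531 and 5907 reads in the challenged libraries and 6243, 6093 and 5816 in the control libraries. These were 322 ± 7.58 CPM and 330 ± 18.3 CPM (SD, n = 3 each), and the groups overlap. The log2 fold change was -0.04 (adjusted p = 0.762 from edgeR, standard error 0.04). Its 95% interval ran from -8.37% to 3.91%, so a rise of the size seen for Itgb2 lies outside it. Vcam1 was a low transcript, with counts of 26, 31 and 50 against 36, 20 and 28, and H3CIT+dsDNA replicate 3 was the highest library. The log2 fold change was 0.37 (adjusted p = 0.639 from edgeR, standard error 0.31), with a 95% interval from -0.30 to 1.05. This interval includes values of both signs and also a rise of the size seen for Itgb2. The Vcam1 estimate moved with single libraries, from 0.06 when H3CIT+dsDNA replicate 3 was left out to 0.62 when control replicate 1 was, and Vcam1 was called in none of these fits. The kB matches printed above lie in both promoters, and whether NF-kB acted on them was not tested.

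**Figure D1:**
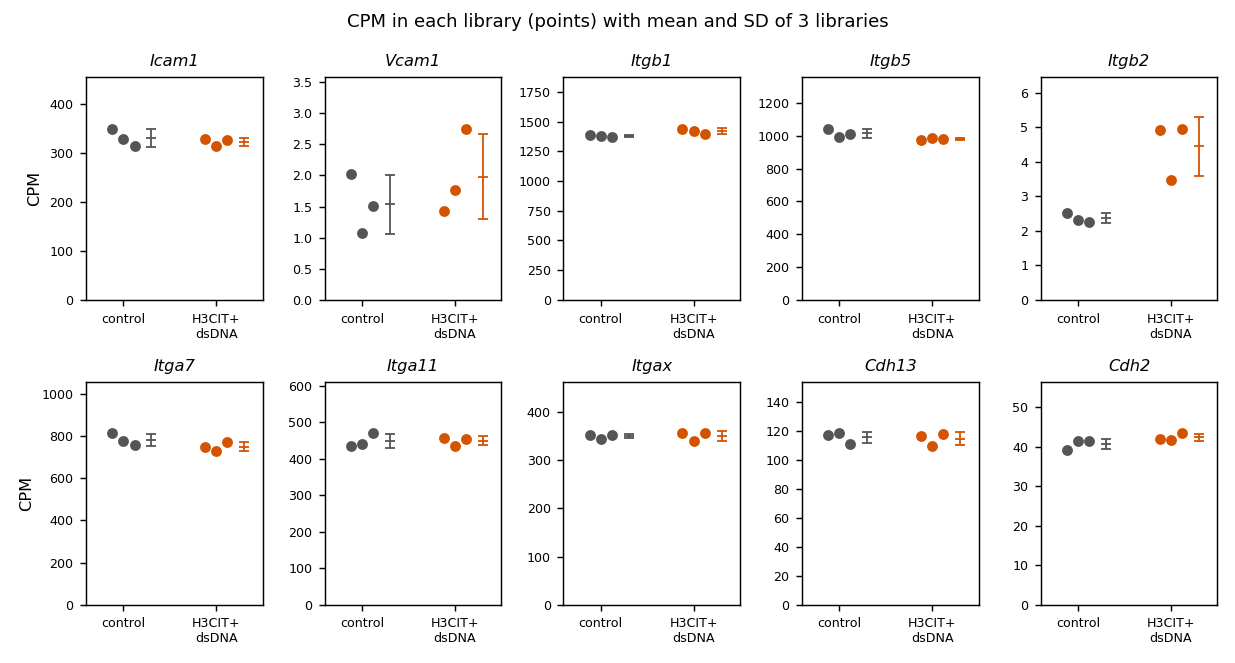
Plot of CPM (vertical axes, from 0) for 10 adhesion receptor genes in the 3 control and 3 H3CIT+dsDNA libraries; points are libraries, and the bar beside them gives mean and SD. Icam1 sits at 330 CPM in controls and 322 after H3CIT+dsDNA, Vcam1 is below 3 CPM in each library, and Itgb2 is the gene whose groups are clearly apart.

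Beta subunits with the highest read counts were Itgb1, the partner of most matrix-binding alpha subunits, and Itgb5, the partner of the Itgav product in a vitronectin receptor. Itgb1 gave 26153, 25099 and 25322 reads in the challenged libraries and 24770, 25626 and 25461 in the control libraries, or 1420 ± 23.9 CPM against 1380 ± 8.05 CPM (SD, n = 3). After scaling the 3 challenged libraries lay above the controls, by a log2 fold change of 0.04 (95% interval -0.02 to 0.10, adjusted p = 0.571 from edgeR). Itgb5 lay slightly the other way, with counts of 17683, 17401 and 17819 against 18628, 18399 and 18700, which is a log2 fold change of -0.05 (95% interval -0.12 to 0.02, adjusted p = 0.541 from edgeR). In percent of the control level, the intervals ran from -1.48% to 7.52% for Itgb1 and from -7.68% to 1.41% for Itgb5.

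Itgb2 gave 89, 61 and 90 reads in the challenged libraries and 45, 43 and 42 in the control libraries. The scaled levels were 4.44 ± 0.850 CPM and 2.37 ± 0.136 CPM (SD, n = 3). All challenged libraries were above all controls, and H3CIT+dsDNA replicate 2 was the lowest of them. The log2 fold change was 0.91 (standard error 0.20, 95% interval 0.48 to 1.34), and edgeR gave an adjusted p of 0.0320. The direction was the same in each alternative, with log2 fold changes from 0.82 to 1.06. The call was not: with the replicate number as a block the adjusted p was 0.0603. It was 0.184 without H3CIT+dsDNA replicate 1, 0.158 without H3CIT+dsDNA replicate 3, and 0.0807, 0.115 and 0.0637 without control replicates 1, 2 and 3, fits with fewer libraries to estimate the spread from.

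**Figure D2:**
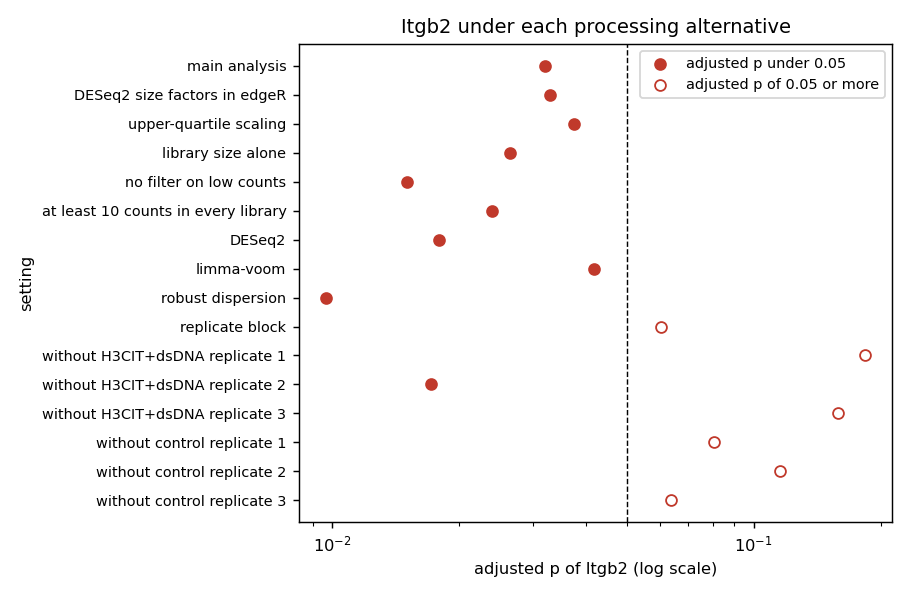
Adjusted p-value of Itgb2 (horizontal axis, log scale) in the main analysis and 15 alternatives (vertical axis); filled points are under 0.05, marked by the dashed line, and open points are not. With all libraries and no block the values lie between 0.00968 and 0.0417, and 6 of the 15 alternatives are past the line.

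None of the alpha partners of Itgb2 was called. Itgal (LFA-1 alpha) had a log2 fold change of 0.22 (95% interval -0.22 to 0.66) and Itgad one of 0.03 (95% interval -0.60 to 0.66), and neither passed the test. Itgam, the alpha subunit of the macrophage integrin Mac-1, was at 0 or 1 count in each library and was not tested. Itgax, known as CD11c on dendritic cells and macrophages, had counts of 6452, 5982 and 6463 against 6287, 6407 and 6554. Its level was 350 ± 9.51 CPM after H3CIT+dsDNA and 350 ± 4.31 CPM in controls (SD, n = 3), a log2 fold change of 0.0009 (95% interval -0.07 to 0.07). Reads on Itgax thus outnumbered those on Itgb2, the only known beta partner of its product, in all 6 libraries. Transcript length was not accounted for in this comparison. Itgb7, the other leukocyte beta subunit, was at 1.19 and 1.46 CPM, and Itgae, its partner at epithelial surfaces, at 6.27 and 6.07 CPM after H3CIT+dsDNA and in controls; neither passed the test.

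Among the alpha subunits of matrix-binding integrins, small shifts of both signs were seen, none of which passed the test. An unadjusted p-value under 0.05 was reached by 8 of the 34 members, against 13.9% of all genes tested. The 8 were Itgb2 and 7 alpha subunits, 5 of them higher and 2 lower. The 3 challenged libraries lay wholly above the controls for 7 of the 34 members and wholly below for 3, or 29.4% together, where 19.1% of all genes tested did not overlap. With 3 libraries a group, an exact permutation test of a single gene cannot give a two-sided p under 0.1.

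Itga4, which pairs with Itgb1 to bind VCAM1 and fibronectin, came closest. It gave 265, 247 and 305 reads in the challenged libraries and 194, 224 and 233 in the control libraries, with no overlap. The log2 fold change was 0.36 (standard error 0.10, 95% interval 0.15 to 0.56, adjusted p = 0.0893 from edgeR). With robust dispersion estimates in edgeR its adjusted p was 0.0476, and it was called in none of the other alternatives. Itga8, an RGD-binding subunit prominent in smooth muscle, had counts of 362, 355 and 388 against 311, 334 and 313, again with no overlap, and a log2 fold change of 0.23 (95% interval 0.08 to 0.39, adjusted p = 0.129). Itga9, the closest relative of Itga4, had a log2 fold change of -0.08 (95% interval -0.31 to 0.16).

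The collagen-binding subunits differed among themselves. Itga1 gave 585, 421 and 576 reads in the challenged libraries and 423, 441 and 469 in the control libraries. H3CIT+dsDNA replicate 2 lay among the controls, while the other two were above them. On the log2 scale the difference was 0.27 (95% interval 0.06 to 0.49, adjusted p = 0.235), and without H3CIT+dsDNA replicate 2 it was 0.40 with an adjusted p of 0.0122 from edgeR. Leaving out any other library gave Itga1 an adjusted p from 0.206 to 0.593 in edgeR. Itga2, at few reads (55, 65 and 55 against 46, 48 and 35), had a log2 fold change of 0.47 (95% interval 0.01 to 0.93, adjusted p = 0.345). Itga11, a collagen receptor of mesenchymal cells, gave by far more reads, with 8288, 7654 and 8251 counts against 7763, 8166 and 8711. In log2 it differed by 0.0017 (95% interval -0.08 to 0.08), and that of Itga10 was -0.02 (95% interval -0.36 to 0.32).

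**Figure D3:**
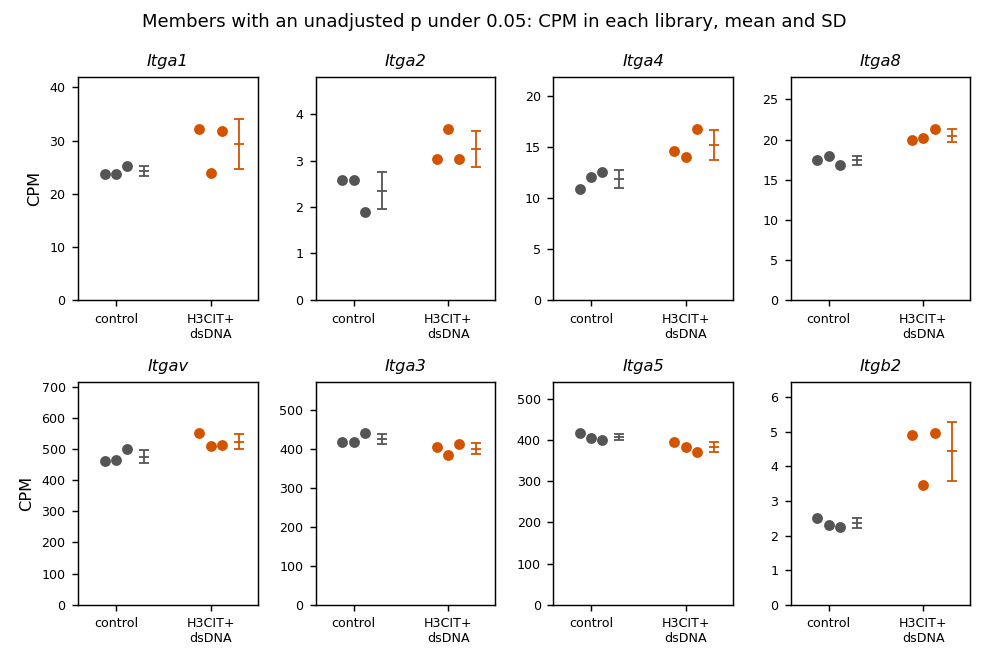
Plot of CPM (vertical axes, from 0) in the control and H3CIT+dsDNA libraries for the 8 members with an unadjusted p under 0.05; points are libraries, bars give mean and SD of 3. Itga3 and Itga5 are the 2 genes with lower means after H3CIT+dsDNA, and Itgb2 alone has an adjusted p under 0.05.

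Itgav, the alpha subunit of the vitronectin receptors, and Itga5, that of the main fibronectin receptor, lay on opposite sides of the controls. Itgav gave 9974, 8963 and 9280 reads in the challenged libraries and 8237, 8651 and 9268 in the control libraries, or 523 ± 23.2 CPM against 476 ± 20.6 CPM (SD, n = 3). On the log2 scale the difference was 0.14 (95% interval 0.05 to 0.23, adjusted p = 0.137), and without control replicate 3, the highest of the controls, it was 0.17 with an adjusted p of 0.0376 from edgeR. Leaving out any other library gave Itgav an adjusted p from 0.133 to 0.473 in edgeR. Itga5 had counts of 7157, 6764 and 6742 against 7431, 7518 and 7440. Its log2 fold change was -0.09 (95% interval -0.16 to -0.01, adjusted p = 0.274), and the groups did not overlap.

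Laminin receptors were represented by Itga3, Itga6 and Itga7, the last of which is the laminin-binding subunit of muscle. Itga7 had the most reads of any alpha subunit, at 13584, 12818 and 14030 in the challenged libraries and 14498, 14445 and 14033 in the control libraries. Its log2 fold change was -0.06 (95% interval -0.14 to 0.02). Itga3 gave 7348, 6807 and 7503 reads against 7445, 7768 and 8177, at a log2 fold change of -0.08 (95% interval -0.16 to -0.0024, adjusted p = 0.340). After scaling all challenged libraries were below all controls for Itga3. Itga6 was at 51.2 and 49.6 CPM, with overlap. Itgb4, whose product pairs only with that of Itga6, had a log2 fold change of -0.11 (95% interval -0.34 to 0.13).

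**Figure D4:**
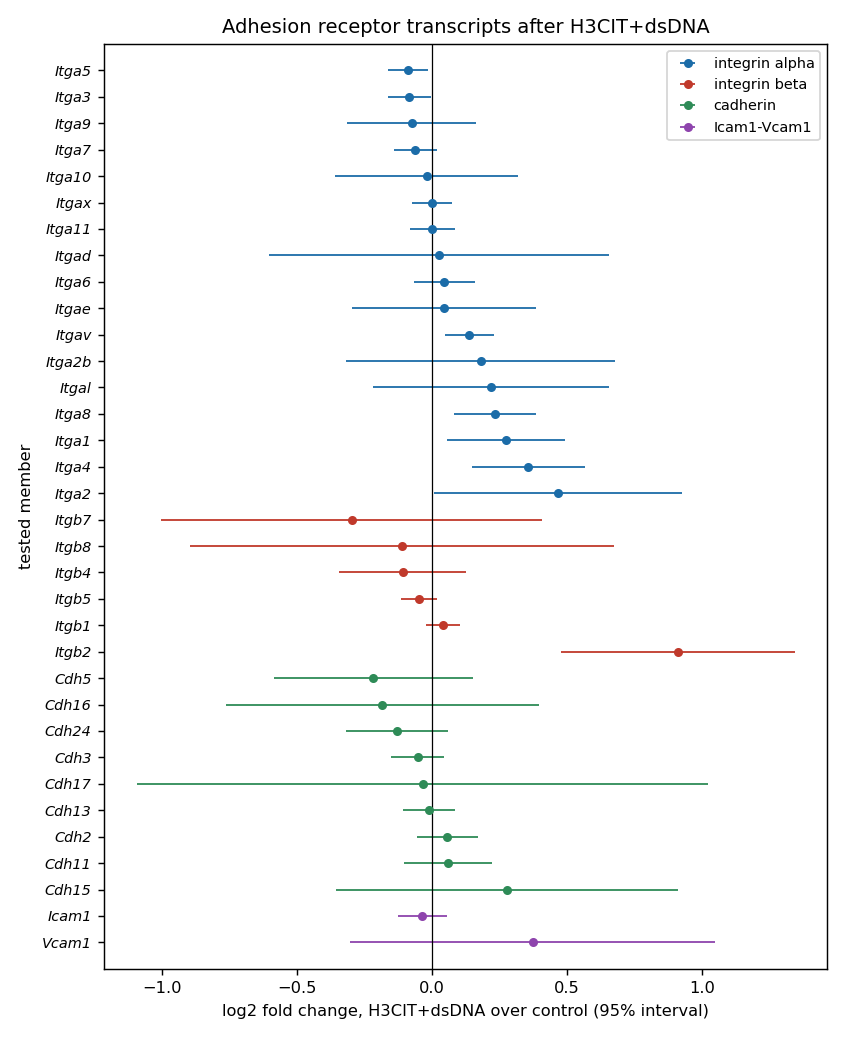
Log2 fold change of H3CIT+dsDNA over control (horizontal axis) with its 95% interval for the 34 tested members (vertical axis), coloured by class. Most estimates lie close to 0, with the interval of 21 of the 34 inside ±0.5, and Itgb2, at 0.91, stands farthest to the right.

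No cadherin passed the test, and the 9 tested had log2 fold changes between -0.22 and 0.28. Cdh13 (T-cadherin), which lacks a cytoplasmic tail and is known from vascular cells, had the most reads, at 2118, 1928 and 2141 in the challenged libraries and 2091, 2196 and 2066 in the control libraries. This is a log2 fold change of -0.01 (95% interval -0.11 to 0.08). Cdh2 (N-cadherin), the classical cadherin of smooth muscle contacts, had counts of 762, 736 and 788 against 701, 772 and 768. After scaling its challenged libraries lay just above the controls, at 42.4 ± 0.883 CPM and 40.8 ± 1.28 CPM (SD, n = 3), and its log2 fold change of 0.06 had a 95% interval from -0.06 to 0.17. Cdh11, a mesenchymal cadherin, had counts of 1159, 1053 and 1067 against 899, 1114 and 1199, so that the controls spread more widely than the groups differed. Its log2 fold change was 0.06 with all libraries and between -0.04 and 0.14 over the alternatives. Cdh3 (P-cadherin) was at 96.6 and 100.2 CPM.

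Cdh5 (VE-cadherin), the cadherin of endothelial junctions, gave 78, 87 and 73 reads in the challenged libraries and 105, 79 and 98 in the control libraries. On the log2 scale the difference was -0.22 (95% interval -0.59 to 0.15, adjusted p = 0.613 from edgeR), beside endothelial markers whose tested members ranged from -0.20 to -0.06. Cdh1 (E-cadherin), the epithelial cadherin, had no more than 4 counts anywhere and was not tested. The 17 members that were not tested were 14 cadherins, Itgam, Itgb3 and Itgb6. None had more than 13 counts in a library, and Cdh7, Cdh12, Cdh18, Cdh19 and Cdh26 had none in all 6. Itgb3, another beta subunit of vitronectin receptors, had 0, 5 and 1 counts in the challenged libraries and 2, 2 and 0 in the control libraries. For these genes no difference was detectable at this depth.

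Talin, kindlins and their associates link integrins to the cytoskeleton. Of the 27 cytoplasmic integrin partners examined, 26 were tested and none was called. An unadjusted p under 0.05 in edgeR was reached by 4 of the 26, where 13.9% of all genes tested reached it. Lims1 (PINCH1) was called under 4 of 15 alternatives, DESeq2 and limma-voom not among them. The 3 with the highest read counts were the actin cross-linkers Flna (log2 fold change -0.03), Actn4 (-0.05) and Actn1 (-0.04). Lims1 was 0.23 higher in log2 (standard error 0.05) with an adjusted p of 0.0559 from edgeR, and Tln1 (talin), which activates integrins, one of -0.03. The list's median log2 fold change was -0.02, against -0.0013 over all genes tested.

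Of the cadherin partners, 11 of 12 were tested and 1 was called higher, where 1.94% of all genes tested were. Ctnnb1 (beta-catenin), which binds cadherin tails and also acts in Wnt signaling, gave 6040, 5973 and 6255 reads in the challenged libraries and 2322, 2433 and 2333 in the control libraries. It rose 2.63-fold (adjusted p = 4.86e-11 from edgeR), and it was called in all 15 alternatives. The other catenins did not pass the test, with log2 fold changes of -0.07 for Ctnna1, -0.0003 for Ctnnd1 (p120) and -0.06 for Jup (plakoglobin). The list's median was 0.02.

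Of 15 further immunoglobulin-family and selectin adhesion genes, 8 were tested and none was called by edgeR, DESeq2 or limma-voom. None reached an unadjusted p under 0.05 in edgeR, where 13.9% of all genes tested did. Ncam1, Mcam and Alcam, the 3 with the highest read counts, had log2 fold changes of 0.05, 0.03 and 0.10, and the list's median was 0.03. Sele, the endothelial selectin, was at 0 or 1 count. Of 25 matrix genes that include the main integrin ligands, 22 were tested and 1 was called higher, where 1.94% of all genes tested were. It was Adamts1, a metalloproteinase rather than a ligand, which rose 3.04-fold (adjusted p = 4.33e-10 from edgeR). The ligands Fn1 (fibronectin), Spp1 (osteopontin) and Thbs1 had log2 fold changes of -0.0038, 0.04 and 0.03. Postn (periostin) had one of 0.14 (adjusted p = 0.0864 from edgeR). The median of the 22 was 0.0054.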

How the data were processed

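By the paper's methods, the authors prepared stranded mRNA libraries, aligned the reads with TopHat 2.1.1 (rat build Rnor6.0) and used HTSeq for counting. They deposited raw counts with a column for each sample. The processing tools listed with the samples were TopHat2, Cufflinks and Cuffdiff, without HTSeq. Which of these made the deposited counts was not settled here. The strand setting was not given in the sources used here. Here, edgeR 4.0.16 (R 4.3.3) was run with its default low-count filter (filterByExpr), TMM factors and a two-sided quasi-likelihood test, Benjamini-Hochberg over 12591 genes. The standard error is the unshrunken coefficient over the square root of F, and intervals are 95%. In simulated counts 189 of 199 genes changed by 1.5 (log2) were called, with 7 of the other genes. Intervals held the true value for 95.2% of 12613 genes, of which all but those 199 were unchanged. The simulation used the dispersion trend that edgeR fitted to these data, so this coverage does not test the intervals on the real counts. Detection of changes smaller than 1.5 was not tested, and no tested member differed by more than 0.91 in log2. Members, lists and the rule for named genes (called or shifted members, the most counted, and fixed partners) were chosen with earlier results of these data known. Alternatives were DESeq2 1.42.0, limma-voom (limma 3.58.1), other scalings and filters, robust dispersion, a replicate block, and leaving out each library. Counts grow with transcript length and no lengths were used here, so the planned levels per coding length were not computed. Comparisons of reads between genes are therefore of counts and not of transcript levels. Names were matched to RefSeq of a later assembly, GRCr8, in which all 51 members have an entry; the promoters come from it.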

Additional observations from a re-analysis of the deposited data

How the results depend on the processing

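Of 315 values of 21 named genes under the alternatives, 306 gave the same call, 6 lost it (all Itgb2), 3 gained it (Itga1, Itga4 and Itgav, each once) and 0 reversed a call. The number of members called higher was 1; it was 2 with robust dispersion, 0 with the replicate block, and 0 to 2 with each library left out. No alternative called a member lower. The cytoplasmic integrin partners called higher, 0 in the main test, were 1 (Lims1) with library size alone, no filter on low counts and robust dispersion, and 0 to 1 with each library left out, the 1 without control replicate 3. The matrix genes called higher, 1 in the main test, were 2 (with Postn) with library size alone, DESeq2 and robust dispersion. The cause was not tested. Whether libraries of equal replicate number were handled together was not given in the sources used here. Their deviations from the group means correlated at -0.0458, 0.0045 and 0.0355 across genes, so no shared replicate effect was visible. The block changed no other call of a named member. The 17 members not tested had at most 13 counts in a library.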

Other observations

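Ratios of subunits within a library need no scaling, and 2 were taken after the values had been seen. The count of Itgav over that of Itga5 was 1.39, 1.33 and 1.38 in the challenged libraries and between 1.11 and 1.25 in the control libraries, so that the 3 challenged libraries were all higher. The count of Itgb1 over that of Itgb5 was 1.48, 1.44 and 1.42 against 1.33, 1.39 and 1.36, likewise with no overlap. In CPM the challenged libraries lay wholly above the controls for Itgav and Itgb1 and wholly below for Itga5 and Itgb5. The separation of both ratios follows from this and is no further finding. The differences were not tested, and none of the 4 genes passed the test on its own.

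Symbols and neighbours bear on some counts. In RefSeq of the assembly GRCr8, Itgam, Itgax and Itgad follow each other on 1 chromosome, and Itgax is also an older name of Itgad, and which of these related genes a read was assigned to was not tested. Their counts differed widely, with 5982 to 6554 for Itgax, 17 to 27 for Itgad and 0 to 1 for Itgam. Of the tested members, 17 overlap another gene in that assembly. Itgb2 is among them, overlapping the non-coding RNA gene LOC120099012, for which the deposited counts hold no values. Pelo lies within the span of Itga1 and gave 1644, 1696 and 1674 reads in the challenged libraries against 1717, 1778 and 1800, where Itga1 had its 2 highest counts after H3CIT+dsDNA. Whether overlapping genes shared reads was not tested.

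Counts that follow each other by 1 across the 3 libraries of a group were looked for among members with a group mean of at least 20. There were 0 in 32 members after H3CIT+dsDNA and 0 in 33 in controls.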
